A study of Homo sapiens with 6 samples.

Results

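The genes described here encode tissue factor, the inhibitors and cofactor that restrain coagulation at the cell surface, and the plasminogen activators with their receptor and inhibitors. They are 9 genes selected by name from the count table, TFPI, TFPI2, F3, PLAU, PLAUR, PLAT, SERPINE2, THBD and SERPINB2, of 33835 named genes with values. The set was drawn up with the fold changes of this same comparison in view, TFPI2 in particular, so the values of the members are given as a description and without p-values. A row was found for 8 of the 9, and all 8 passed the filter on low counts, THBD through its shE6AP libraries alone. No row matched SERPINB2 or its other names, and no value is given for it.

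The cells were DU145, an established human prostate cancer line. One group (shE6AP, 3 libraries) was transduced with a short hairpin against E6AP, the ubiquitin ligase encoded by UBE3A, and the other (wobble, 3 libraries) with a control that the labels do not describe further. The protocol, given alike for both groups, induced knockdown with 0.2 µg/ml doxycycline over 2.5 days, so neither is an untreated line. The labels do not say whether either group was a pool or a clone of transduced cells, nor whether its libraries came from separate cultures; p-values therefore measure only the spread between these libraries, which may be technical.

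Tissue factor starts coagulation when it binds factor VII at a cell surface, and TFPI blocks the resulting complex through Kunitz domains, small folds that plug the active site of serine proteases. TFPI2, the paralogue of TFPI, is deposited in the matrix and inhibits plasmin and other serine proteases more readily than tissue factor activity. Plasmin is made from plasminogen by the urokinase-type activator (PLAU), held at the surface by its receptor (PLAUR), or by the tissue-type activator (PLAT), and serpins such as SERPINE2 and SERPINB2 inactivate both activators. In epithelial tumours this system is known for matrix breakdown during invasion.

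The libraries held 21558506 to 30488217 reads assigned to genes. Levels are given as CPM, reads scaled to a common library size after TMM correction. UBE3A, the hairpin's target, averaged 55.8 ± 1.97 CPM in wobble against 14.6 ± 0.376 CPM in shE6AP (SD, n = 3). All 7 epithelial markers were detected and split by direction, with KRT8, KRT18, EPCAM and CLDN4 higher in shE6AP and KRT7, KRT19 and CDH1 lower. Their summed level was 2240 to 2290 CPM in shE6AP and 2855 to 2995 CPM in wobble, a gap carried by KRT7, which stood at 1120 ± 8.57 and 1911 ± 61.0 CPM (SD, n = 3). In bulk RNA, fewer expressing cells and less RNA per cell cannot be told apart, which holds for every level below.

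Of the 8 measured members, TFPI2, THBD, F3, SERPINE2, PLAUR and TFPI were higher in shE6AP, and PLAU and PLAT were lower. All 8 passed the threshold used throughout, a Benjamini-Hochberg adjusted p under 0.05 in edgeR's quasi-likelihood test over 19433 genes. That threshold was passed by 59.0% of all genes tested, 28.6% higher and 30.4% lower, and since the comparison itself entered the choice of members, nothing is read from their count. The stricter requirement of a fold beyond 1.2, tested with glmTreat, was met by the 6 higher members and by neither lower one, against 29.0% of all genes (13.1% higher, 15.9% lower). CPM values did not overlap between the groups for any of the 8, which was true of 62.6% of genes. Log2 fold changes of the members ran from -0.38 for PLAT to 6.53 for THBD with a median of 0.508; the median over all genes tested was 0.00837, and the median size of change regardless of direction was 0.264.

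**Figure D1:**
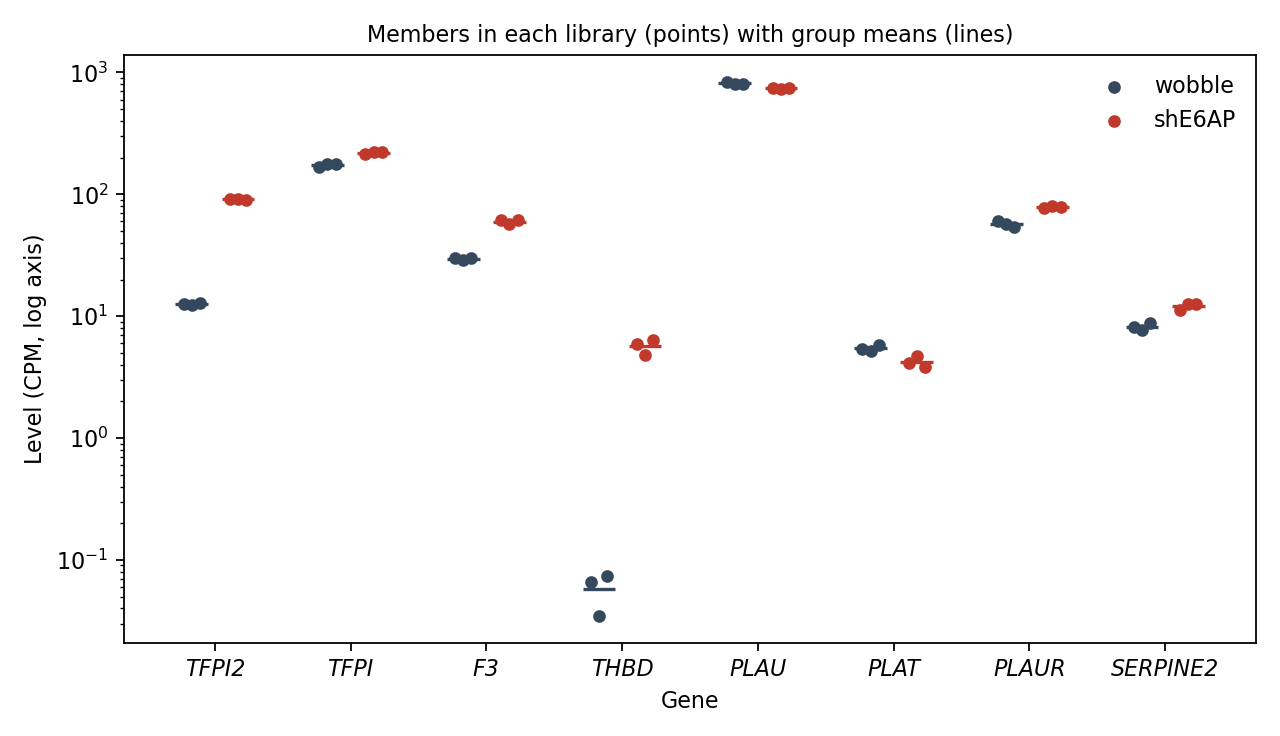
Level of each measured gene in CPM on a log axis (vertical) for the 3 wobble and 3 shE6AP libraries (points), with group means as lines. The groups lie apart for all 8 genes; the gap is widest for THBD (0.0582 against 5.74 CPM on average) and TFPI2 (12.7 against 91.2 CPM) and narrowest for PLAU (816.0 against 741.0 CPM).

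TFPI2 had the largest fold change of any measured member after THBD. Its 3 wobble libraries held 384, 360 and 349 reads, or 12.68, 12.46 and 12.88 CPM. The shE6AP libraries held 2597, 1973 and 2160 reads, or 91.06, 92.41 and 90.09 CPM. Every shE6AP library was far above every wobble library, and within each group the 3 values were nearly the same. The ratio of group means was 7.2, with a fitted log2 fold change of 2.85 (SE 0.047), larger in size than that of 99.3% of genes tested. The coefficient of variation between libraries was 1.28% in shE6AP and 1.66% in wobble, below the 2.11% and 5.24% that counting alone would give at these depths. A few exon bases of TFPI2 are shared with genes on the opposite strand, 1.64% with GNGT1 and 2.95% with AC002076.1 in GENCODE release 29; GNGT1 itself held 4 to 12 reads a library.

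TFPI, the paralogue that acts on tissue factor, moved much less. It stood at 167.9, 177.2 and 176.8 CPM in wobble and at 214.2, 224.0 and 221.5 CPM in shE6AP. The lowest shE6AP library was above the highest wobble library, and the ratio of means was 1.26 (log2 fold change 0.34, SE 0.0335). In wobble cells 0.0729 ± 0.00261 reads fell on TFPI2 for each read on TFPI, and in shE6AP cells 0.415 ± 0.00937 (SD, n = 3), a ratio within each library that no scaling can change.

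The promoters of both inhibitors are set out here because these paralogues differed so much in response. The stretches are the 250 bases before the annotated start, taken from RefSeq on GRCh38.p14, at chr7:93890754-93891003 for TFPI2 and chr2:187554436-187554685 for TFPI, both on the minus strand and written 5′ to 3′. Capitals mark every match on either strand to TGANTCA (the AP-1 element), GGGCGG (the GC box bound by SP1) and TATAAA (the TATA box); no match overlaps another.

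TFPI2: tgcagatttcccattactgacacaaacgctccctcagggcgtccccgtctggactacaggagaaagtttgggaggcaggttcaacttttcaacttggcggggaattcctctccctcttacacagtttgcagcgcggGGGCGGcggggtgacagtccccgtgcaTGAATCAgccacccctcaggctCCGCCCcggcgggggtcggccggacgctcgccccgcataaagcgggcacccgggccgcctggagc

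TFPI: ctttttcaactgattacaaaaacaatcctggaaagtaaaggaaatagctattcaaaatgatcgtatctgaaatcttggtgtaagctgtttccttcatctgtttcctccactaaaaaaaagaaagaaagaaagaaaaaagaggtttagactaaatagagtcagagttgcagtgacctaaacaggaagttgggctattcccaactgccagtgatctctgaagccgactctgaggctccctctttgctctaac

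The TFPI2 stretch held 20 CpG dinucleotides and 64.4% G and C, more CpGs than 67.6% of the 35116 promoter windows of the RefSeq table. It had 1 AP-1 match, starting 87 bases before the start site, and 2 GC boxes, with leftmost bases at 114 and 65. TFPI, by contrast, had 2 CpGs, 38.4% G and C and no match to any of the 3 marked motifs. The HIF core (ACGTG), CRE half-site (TGACG) and ETS core (GGAAG) were searched too but not marked. Of these, TFPI had 1 ETS core, its leftmost base at 69, and TFPI2 had no match. An ETS core stood in 65.1% of all windows. Over all windows, 6.57% held an AP-1 match, 42.6% a GC box and 10.7% a TATA box, and the median was 11 CpGs. These are letters in a window and carry no measurement of methylation or of factor binding.

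F3, which encodes tissue factor itself, was about doubled. Wobble libraries stood at 29.99, 28.93 and 30.3 CPM, from 908, 836 and 821 reads. The shE6AP libraries stood at 61.15, 56.81 and 61.31 CPM, from 1744, 1213 and 1470 reads. The groups were well apart, and the second shE6AP library was the lowest of its group. The ratio of means was 2.01 and the log2 fold change 1.01 (SE 0.0445). Reads on F3 for each read on TFPI, its inhibitor, came to 0.171 ± 0.00766 in wobble and 0.272 ± 0.0165 in shE6AP (SD, n = 3). Reads on TFPI2 for each read on F3 came to 0.426 ± 0.00398 and 1.53 ± 0.0856, with the ratio below 1 in each wobble library and above 1 in each shE6AP library.

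The F3 promoter is shown for comparison with that of TFPI2, since both genes at least doubled. THBD, which rose more than either, had no window in the promoter table. It lies at chr1:94541760-94542009 on the minus strand (GRCh38.p14), with the same marking.

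F3: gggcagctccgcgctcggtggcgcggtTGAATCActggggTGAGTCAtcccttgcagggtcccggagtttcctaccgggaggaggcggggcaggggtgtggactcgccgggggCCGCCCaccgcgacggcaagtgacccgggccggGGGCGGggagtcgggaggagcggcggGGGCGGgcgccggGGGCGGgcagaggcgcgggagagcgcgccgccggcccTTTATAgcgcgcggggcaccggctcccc

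It held 34 CpGs, more than 93.2% of windows, and 2 AP-1 matches with first bases 223 and 210 bases before the start. It also held 4 GC boxes and a TATA box on the reverse strand, its leftmost base 28 bases before the start.

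THBD, thrombomodulin, a receptor that turns thrombin towards the activation of protein C, was close to undetected in wobble cells. The wobble libraries held 2, 1 and 2 reads. The shE6AP libraries held 170, 103 and 154 reads, or 5.961, 4.824 and 6.423 CPM. The lowest shE6AP library held 51.5 times the reads of the highest wobble library, and the groups were far apart. Group totals of 427 and 5 reads gave a ratio of 99.8 after scaling, with an exact 95% interval of 42.4 to 309.0 that covers counting error only. The coefficient of variation of 14.3% in shE6AP was the largest of any member there. In GENCODE release 29 the THBD transcript has 1 exon, and no other gene overlaps it.

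Thrombomodulin is a marker of endothelium and of some myeloid cells, so their genes were read beside it. The 6 endothelial markers with a row, of 7 listed, summed to 1.72 to 2.67 CPM in shE6AP and 1.81 to 1.97 CPM in wobble; PECAM1 had no row. They went both ways: of 3 tested, TEK rose, ERG fell and CLDN5 did not pass. TEK was close to the threshold (adjusted p = 0.0471) and its groups overlapped, with 9, 12 and 14 reads in shE6AP and 11, 4 and 7 in wobble. Of those with too few reads to test, CDH5 stood at 0.357 ± 0.0567 CPM in shE6AP and 0.118 ± 0.0605 in wobble (SD, n = 3). In the same order VWF stood at 0.263 ± 0.107 and 0.196 ± 0.104 CPM and KDR at 0.0868 ± 0.0836 and 0.2 ± 0.0849 CPM. Blood cell markers, 5 of 9 with a row, summed to 3.61 to 4.71 CPM in shE6AP and 1.7 to 2.32 CPM in wobble. Of 4 tested, 2 rose (CD14 and ITGAM), 1 fell and 1 did not pass. CD14 stood at 2.41 ± 0.486 and 0.7 ± 0.207 CPM and PTPRC, which marks all leukocytes, at 0.359 ± 0.0713 and 0.267 ± 0.0993 CPM (SD, n = 3), while CD3E, HBB and PF4 were among those without a row. The part of such cells in the THBD reads was not tested.

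PLAU, the urokinase-type activator, carried most of the reads on the members, without regard to gene length. It took 73.5% to 74.7% of member reads in wobble libraries and 60.5% to 61.7% in shE6AP libraries. Its levels were 841.1, 800.7 and 806.0 CPM in wobble and 749.6, 729.0 and 745.1 CPM in shE6AP. The groups did not overlap, but the difference was small, with a ratio of means of 0.908 and a log2 fold change of -0.14 (SE 0.0315), larger in size than that of 28.4% of genes tested. C10orf55, on the opposite strand, shares 31.1% of the exon bases of PLAU in GENCODE release 29, and reads there cannot be assigned by strand in an unstranded library. C10orf55 held 197 to 309 reads a library and did not pass (log2 fold change 0.06, SE 0.0833, adjusted p = 0.555).

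PLAT, the tissue-type activator, was the other member that was lower in shE6AP. Its levels were 5.416, 5.191 and 5.794 CPM in wobble, from 164, 150 and 157 reads. In shE6AP they were 4.138, 4.684 and 3.795 CPM, from 118, 100 and 91 reads. All 3 shE6AP values lay below the wobble values, with a ratio of means of 0.769 and a log2 fold change of -0.38 (SE 0.11). The reads of PLAU for each read of PLAT were 150.0 ± 9.06 in wobble and 178.0 ± 20.6 in shE6AP (SD, n = 3), and the lowest shE6AP library (156.0) was just above the highest wobble library (155.0).

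PLAUR, the receptor that concentrates urokinase at the membrane, went the other way from its ligand. It stood at 60.14, 56.82 and 54.29 CPM in wobble and at 77.7, 80.09 and 78.24 CPM in shE6AP. No wobble library reached the lowest shE6AP library, and the log2 fold change was 0.46 (SE 0.0401). PLAU reads for each PLAUR read were 14.3 ± 0.47 in wobble and 9.42 ± 0.285 in shE6AP (SD, n = 3), with values of 9.1 to 9.65 in shE6AP and 14.0 to 14.8 in wobble. The ratio of ligand to receptor reads was thus lower in every shE6AP library than in any wobble library.

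The PLAU and PLAUR promoters are shown as those of a ligand and receptor that moved in opposite directions. PLAU has 2 windows in the RefSeq table, and the one shown is the more 3′, at chr10:73910882-73911131 on the plus strand; PLAUR lies at chr19:43670170-43670419 on the minus strand (both GRCh38.p14). Marking is as above.

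PLAU: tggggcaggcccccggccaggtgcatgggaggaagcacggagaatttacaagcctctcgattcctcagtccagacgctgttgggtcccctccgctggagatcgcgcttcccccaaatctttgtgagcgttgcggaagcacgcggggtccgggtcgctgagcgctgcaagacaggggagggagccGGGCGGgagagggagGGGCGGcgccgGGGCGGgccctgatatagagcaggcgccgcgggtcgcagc

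PLAUR: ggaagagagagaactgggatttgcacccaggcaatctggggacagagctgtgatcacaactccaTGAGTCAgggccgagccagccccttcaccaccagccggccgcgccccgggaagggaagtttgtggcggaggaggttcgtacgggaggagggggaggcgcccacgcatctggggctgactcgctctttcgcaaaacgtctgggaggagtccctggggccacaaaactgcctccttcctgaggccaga

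The PLAU window shown had 24 CpGs and 3 GC boxes with no AP-1 match, and its other window had 4 CpGs and none of the 3 motifs. PLAUR had 13 CpGs, 1 AP-1 match with its first base 186 bases before the start, and no GC box. Of the 7 members found in the promoter table, AP-1 letters stood in 4 (F3, PLAUR, TFPI2 and SERPINB2), GC boxes in 4 (F3, PLAU, SERPINE2 and TFPI2) and a TATA box in 2 (F3 and SERPINB2), counting a gene once where any of its windows held the motif. Of the motifs searched but not marked, the ETS core stood in 5 (PLAU, PLAUR, SERPINB2, SERPINE2 and TFPI). The HIF core stood in 1 (SERPINE2) and the CRE half-site in 0. Counted by window, the unit of the shares given earlier, AP-1 matches stood in 4 of 9, GC boxes in 5 and TATA boxes in 2. THBD and PLAT had no window in the promoter table and are named only, although THBD rose most of the members. SERPINE2 and TFPI, also higher in shE6AP, held no AP-1 match.

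SERPINE2, protease nexin 1, a serpin that inhibits thrombin, urokinase and plasmin, was higher in shE6AP. Wobble libraries stood at 8.124, 7.683 and 8.82 CPM and shE6AP libraries at 11.22, 12.51 and 12.55 CPM. The groups did not overlap, and the log2 fold change was 0.55 (SE 0.0798).

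Against this serpin, urokinase reads were fewer in shE6AP. There were 99.7 ± 7.22 reads on PLAU for each read on SERPINE2 in wobble and 61.5 ± 4.63 in shE6AP (SD, n = 3). Set against TFPI2, the ratio was 64.4 ± 1.88 in wobble and 8.13 ± 0.21 in shE6AP (SD, n = 3). In both cases no library of one group reached the values of the other.

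**Figure D2:**
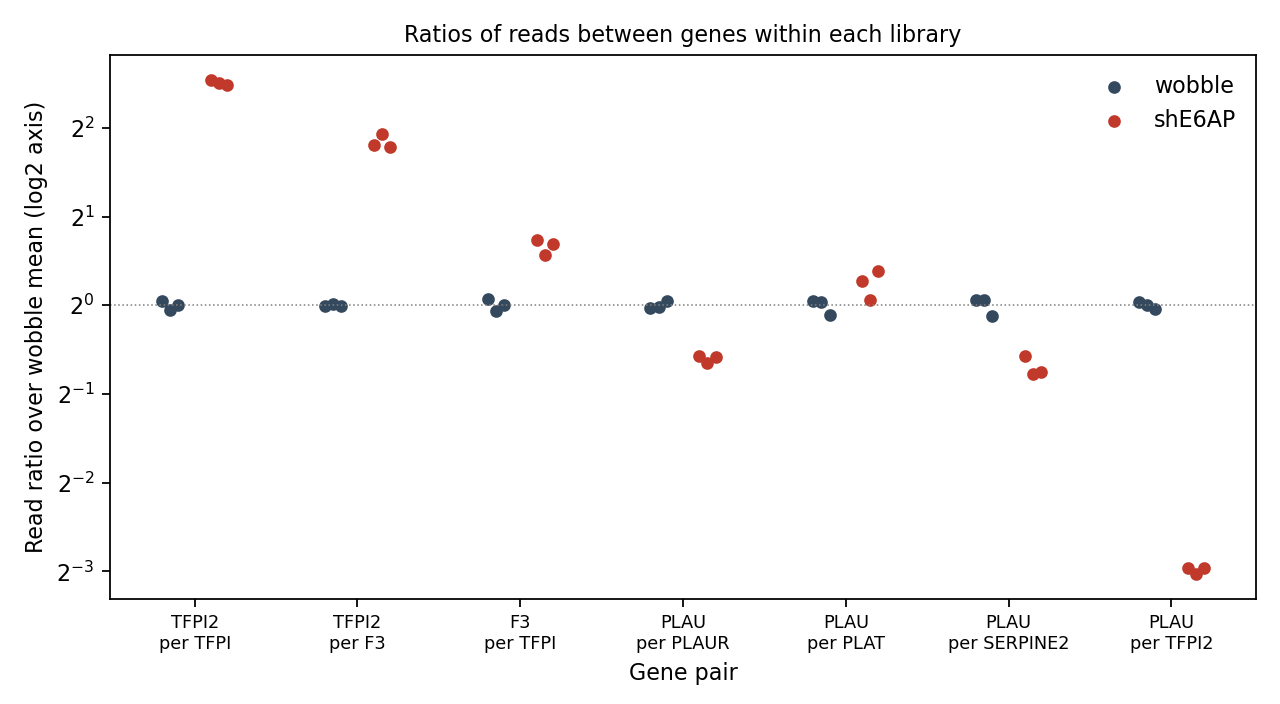
Reads on the first gene for each read on the second within a library, divided by the wobble mean (vertical, log2 axis), for 7 gene pairs; points are libraries. The pairs with TFPI2 lie farthest from the wobble mean, and the PLAU to PLAT ratio shows the smallest gap, from 155.0 in the highest wobble library to 156.0 in the lowest shE6AP library before division.

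To compare levels between genes, CPM was divided by the length of all exons of a gene in kilobases (GENCODE release 29, whose build differs from that of the counts). On this scale PLAU led in both groups, at 277.0 ± 7.45 CPM per kb in wobble and 251.0 ± 3.66 in shE6AP (SD, n = 3). In wobble it was followed by TFPI (14.9), PLAUR (12.8), F3 (10.3), TFPI2 (4.73), SERPINE2 (0.923), PLAT (0.826) and THBD (0.0142). In shE6AP the order of levels per kb was TFPI2 (34.0), F3 (20.8), TFPI (18.8), PLAUR (17.7), THBD (1.4), SERPINE2 (1.36) and PLAT (0.635). On these lengths TFPI2 stood at the fifth place in wobble and at the second in shE6AP. Neighbours in these orders whose libraries overlapped were SERPINE2 and PLAT in wobble and THBD and SERPINE2 in shE6AP. The order depended on the length taken. For SERPINE2 and PLAT the longest transcript has only 2 exons, and whether their reads came from those transcripts was not tested. With the longest transcript as length, PLAUR stood at 48.9 CPM per kb in shE6AP, above TFPI2 at 37.3, which was then at the third place. There TFPI (28.6) also passed F3 (26.1), and SERPINE2 (2.02) passed THBD (1.4). In wobble PLAUR (35.5) passed TFPI (22.6), and PLAT (1.58) passed SERPINE2 (1.37), while TFPI2 was again at the fifth place.

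Among 12381 other genes of at least 5 CPM on average, those whose log2 CPM, centred on the wobble mean, lay nearest to that of TFPI2 over the 6 libraries were FRMD3, ZNF711 and DTX4. Their root-mean-square differences from TFPI2 were 0.0899, 0.106 and 0.111 on the log2 scale. FRMD3, for example, stood at 3.09 ± 0.158 CPM in wobble and 21.2 ± 1.3 in shE6AP (SD, n = 3). With 2 groups, such likeness is mostly a likeness of fold change.

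Other genes of these pathways, without the members, were read from lists grouped by role and drawn up with earlier results of these data known, and they moved both ways. Of 83 tested, 32 rose, 24 fell and 27 did not pass, so 67.5% passed against 59.0% of all genes; the median log2 fold change was 0.0781 against 0.00837. Past a fold of 1.2 there were 24 higher and 15 lower. Genes named only to complete a count were chosen after their values were seen.

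Of 21 coagulation factors and genes that make or process them, 10 had enough reads to be tested. Of these 7 rose, 1 fell (F8) and 2 did not pass, with a median of 0.352, beside 28.6% of all genes higher and 30.4% lower. F5 and F13A1, both among the 7, averaged 0.0469 and 0.288 CPM in wobble. They passed the low-count filter through shE6AP alone and so could only be called higher. TGM2, a transglutaminase related to factor XIII, rose from 581.0 ± 16.7 to 1245 ± 23.6 CPM (SD, n = 3; log2 fold change 1.10, SE 0.0322, adjusted p = 9.97e-30). F13A1, the clot-stabilising transglutaminase, rose from 0.288 ± 0.0582 to 4.14 ± 0.701 CPM (SD, n = 3), a log2 fold change of 3.80 (SE 0.225). LMAN1 and MCFD2, partners that carry factors V and VIII out of the endoplasmic reticulum, rose by 0.43 and 0.34 on the log2 scale. Prothrombin (F2), F7, F11 and the fibrinogen genes FGA, FGB and FGG had too few reads to be tested, at no more than 0.0941 CPM on average in either group, and hepatocyte markers summed to at most 0.623 CPM in any library.

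Among plasminogen, its receptors and cofactors, 3 of 14 rose, 2 fell and 9 did not pass, with a median of 0.0115. Thus 35.7% passed, against 59.0% of all genes. PLG, plasminogen itself, was at 0.232 ± 0.0201 and 0.255 ± 0.199 CPM in shE6AP and wobble (SD, n = 3) and was not tested. ANXA2, which binds plasminogen at the surface as a complex with S100A10, fell from 1162 ± 39.8 to 959.0 ± 11.9 CPM (SD, n = 3; log2 fold change -0.28, SE 0.032, adjusted p = 4.37e-10). S100A10 showed a log2 fold change of 0.03 and did not pass (adjusted p = 0.435). ITGA5 and ITGB1, which form the fibronectin receptor that associates with PLAUR, rose by 1.02 and 0.86 on the log2 scale, and VLDLR, a receptor that clears protease and serpin complexes, by 0.13. IGF2R, which binds PLAUR and plasminogen, fell by 0.12 on the log2 scale.

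Of 12 inhibitors of coagulation and fibrinolysis tested, 5 rose (among them SERPINA1, A2M, SERPINA10 and ANXA5), 3 fell (SERPINI1, PROCR and PROZ) and 4 did not pass. The median was 0.218, and 66.7% passed against 59.0% of all genes. SERPINA1, alpha-1 antitrypsin, rose from 9.3 ± 0.475 to 40.4 ± 2.38 CPM (SD, n = 3; log2 fold change 2.11, SE 0.0609, adjusted p = 5.81e-30). PROCR, the receptor that presents protein C to the thrombomodulin complex, fell from 48.5 ± 1.6 to 34.2 ± 1.29 CPM (SD, n = 3; log2 fold change -0.50), opposite in direction to THBD. SERPINI1, neuroserpin, an inhibitor of PLAT, fell by 0.56 on the log2 scale. ANXA5, a phospholipid-binding anticoagulant protein, rose by 0.57.

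Receptors for thrombin and other proteases split as well: of 5 tested, 2 rose (F2RL1 and F2RL2), 1 fell (F2R) and 2 did not pass (F2RL3 and GP1BA). The share that passed was 60.0%, against 59.0% of all genes. F2RL1, which responds to trypsin-like proteases and to the tissue factor complex, rose from 9.92 ± 0.582 to 16.0 ± 0.621 CPM (SD, n = 3; log2 fold change 0.69, adjusted p = 1.79e-11). F2R, the thrombin receptor, fell from 38.5 ± 0.944 to 34.1 ± 1.61 CPM (log2 fold change -0.18, adjusted p = 0.00118). F2RL2 rose by 2.42 on the log2 scale from 0.539 ± 0.18 CPM (SD, n = 3).

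Of 12 tested genes that share the Kunitz domain of TFPI2, 5 were higher, 3 lower and 4 did not pass, with a median of 0.0831. The share that passed, 66.7%, was near the 59.0% of all genes. AMBP, among the 5, held 2, 0 and 0 reads in wobble and passed the low-count filter through shE6AP alone. SPINT1, an inhibitor of the membrane proteases matriptase and hepsin, rose from 26.1 ± 0.295 to 39.4 ± 1.36 CPM (SD, n = 3; log2 fold change 0.59, adjusted p = 1.54e-14). The lower ones were COL28A1, COL7A1 and PAPLN, matrix proteins that carry a Kunitz domain, at log2 fold changes of -1.29, -0.76 and -0.37. Whether TFPI2 differs from this list was not tested.

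Clade B serpins, the family of SERPINB2, had 4 of 6 tested higher (SERPINB5, SERPINB7, SERPINB8 and SERPINB9) and 2 lower (SERPINB1 and SERPINB6). The median was 0.393, and of all genes 28.6% were higher and 30.4% lower. SERPINB5, maspin, rose from 0.459 ± 0.183 to 4.01 ± 0.305 CPM (SD, n = 3), a log2 fold change of 3.13 (SE 0.203), and SERPINB7 from 0.59 ± 0.184 to 5.2 ± 0.464 CPM (SD, n = 3), one of 3.14. SERPINB9, the granzyme B inhibitor, rose by 0.49 and SERPINB6 fell by 0.21 on the log2 scale.

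Of 13 pericellular proteases tested, 5 rose, 4 fell and 4 did not pass, with a median of 0.168. Here 69.2% passed, against 59.0% of all genes. ST14, matriptase, which can activate urokinase at the surface, rose from 4.4 ± 0.372 to 11.1 ± 0.968 CPM (SD, n = 3; log2 fold change 1.33, SE 0.095, adjusted p = 3.85e-16). CTSL1, cathepsin L, rose by 0.72 on the log2 scale, while CTSB, cathepsin B, also an activator of urokinase, and CTSD fell by 0.39 and 0.32. Genes for matrix proteins, metalloproteinases and growth factors that plasmin or its partner proteases process had the largest share of falls among these 8 lists. In that list 1 of 11 was higher (LAMC1), 8 were lower, the metalloproteinase gene MMP13 among them, and 2 did not pass. The median was -0.344, beside 30.4% of all genes lower. LAMB1, a laminin chain, fell from 212.0 ± 3.24 to 97.5 ± 1.17 CPM (SD, n = 3; log2 fold change -1.12, adjusted p = 3.59e-29). VEGFC, VEGFA and LTBP1 showed log2 fold changes of -2.33, -0.61 and -0.67.

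**Figure D3:**
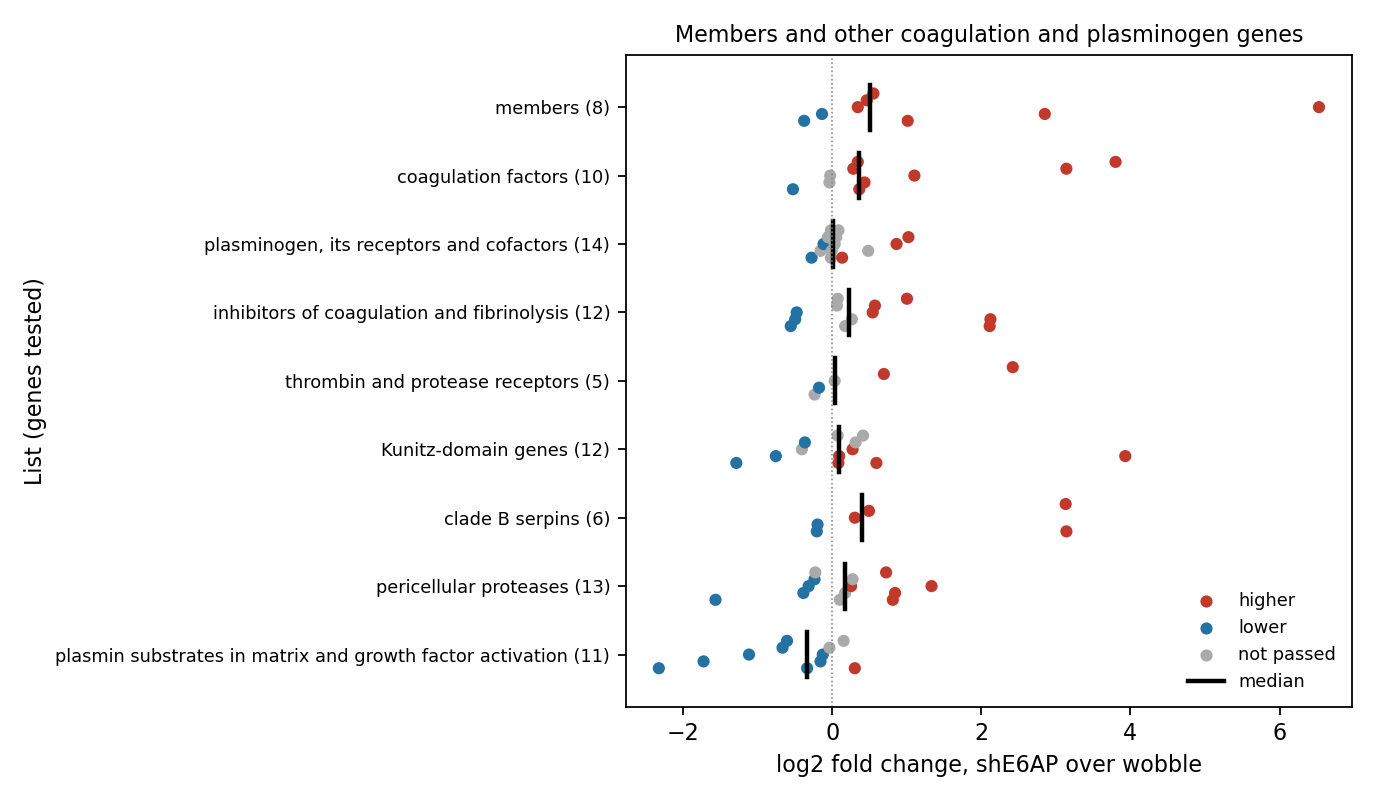
Difference in log2 level, shE6AP minus wobble (horizontal), for the tested genes of each list (vertical, number tested in brackets); points are genes coloured by their call, black bars are list medians. Medians run from -0.344 for plasmin substrates to 0.508 for the members, which were chosen with these values known; the member farthest right is THBD at 6.53.

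Genes beside the members on their chromosomes were compared next, taking the 3 nearest tested genes on each side in the RefSeq order. Of 54 such genes, 24 rose, 19 fell and 11 did not pass, so 79.6% passed against 59.0% of all genes. Around TFPI2 all 6 passed, 4 higher (SAMD9L, CALCR, GNG11 and BET1) and 2 lower (CCDC132 and COL1A2). GNG11, a G protein gamma subunit and the nearest tested gene on one side, rose from 15.8 ± 0.811 to 32.4 ± 1.83 CPM (SD, n = 3; log2 fold change 1.04, SE 0.0569, adjusted p = 5.99e-20). CALCR, the calcitonin receptor and nearest on the other side, rose by 0.77 on the log2 scale from 1.61 ± 0.39 CPM. SAMD9L held 4 reads over the wobble group and 33 over shE6AP, a ratio of 9.64 with an exact 95% interval of 3.43 to 37.5 (counting error only).

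Beside the other members the pattern varied, where 28.6% of all genes tested were higher and 30.4% lower. F3 had neighbours with 2 higher and 3 lower of 6 and a median log2 fold change of -0.0708, and TFPI 0 higher and 2 lower with -0.165, so the median of the neighbours lay below 0 for both while the member was higher. PLAUR had 5 higher and 1 lower (ZNF428) with a median of 0.507, close to its own value, and KCNN4, a potassium channel gene, rose there by 1.37 on the log2 scale. SERPINE2 had 2 higher and 4 lower with a median of -0.477, opposite in sign to the member. Around PLAT there were 3 higher and 3 lower, with AP3M2 up by 0.84, and around PLAU 1 higher (CAMK2G) and 2 lower, with VCL, vinculin, at -0.53 on the log2 scale. COL5A2 beside TFPI and ABCA4 beside F3 were at -0.61 and -0.98, and KIAA1486 beside SERPINE2 at -0.88 (adjusted p = 0.0063), which did not pass with DESeq2 (adjusted p = 0.0901) or without wobble replicate 2 (0.0987).

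Around THBD 2 of 6 rose and 2 fell. The nearest tested gene on one side was FOXA2, a pioneer transcription factor gene that was likewise near 0 in wobble. FOXA2 had 1, 0 and 0 reads in wobble and 24, 22 and 22 in shE6AP, a ratio of 79.4 with an exact 95% interval of 13.8 to 3183 (counting error only). Its fitted log2 fold change of 5.83 rests on that single read and was 7.59 without wobble replicate 1. On the other side of THBD, NXT1 fell by 0.23 on the log2 scale and GZF1 and NAPB did not pass. Around SERPINB2, which had no row, 5 of 6 rose and 0 fell, with a median of 1.23. Over all genes 28.6% were higher and 30.4% lower. The 5 that rose beside SERPINB2 were SERPINB5, SERPINB7 and SERPINB8, already counted among the clade B serpins, with HMSD and VPS4B. The nearest, SERPINB7 and HMSD, had log2 fold changes of 3.14 and 2.12.

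**Figure D4:**
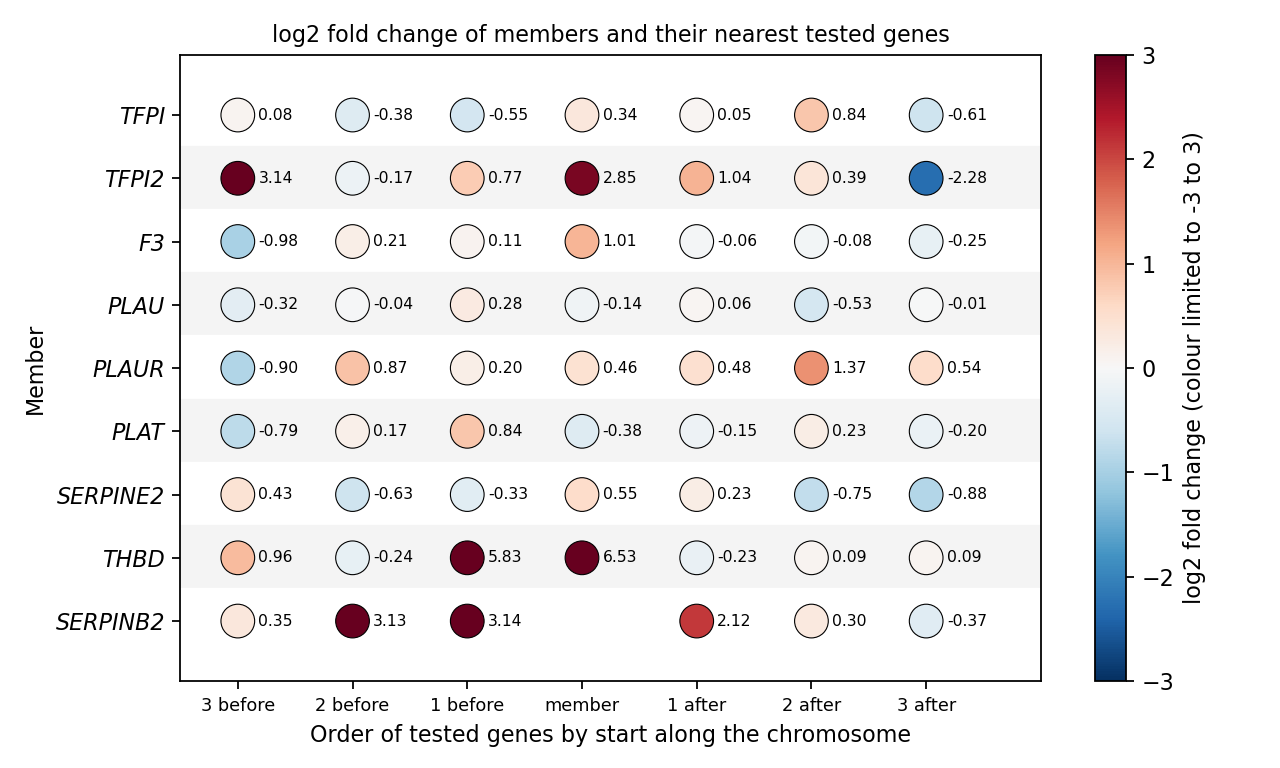
Log2 fold change (colour, limited to the range -3 to 3, and printed value) of each member and of the 3 nearest tested genes before and after it along the chromosome (horizontal, in order of start). Values above 3 beside a member are those of FOXA2 next to THBD (5.83), SAMD9L near TFPI2 (3.14) and SERPINB7 and SERPINB5 (3.14 and 3.13) beside SERPINB2, which has no value of its own.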

How the data were processed

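Per the submitters' processing notes, TopHat2 2.0.13, Bowtie2 and HTSeq were used with hg19. The deposited table holds the authors' raw counts, whole numbers of reads for each gene; the annotation and the strand option are not stated in the labels used here, and the library kit does not mark strand. Left out were reads outside genes (14.6% to 16.0%), ambiguous reads (2.05% to 2.21%), 1 row with a blank name (at most 4.59e-05%) and 1 name without values. The quasi-likelihood test of edgeR 4.0.16 in R 4.3.3 was fitted over all genes, after filterByExpr and TMM, with group alone as a term and Benjamini-Hochberg adjustment. A gene with hardly any reads in 1 group could pass filterByExpr through the other group. It could then be called only as higher in that other group, as for THBD, FOXA2 and SAMD9L in shE6AP. Each SE is derived from the log2 fold change and its F statistic. The scripts were tested on simulated data.

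Members and lists were chosen with earlier results of these data known. Named genes were the members, UBE3A, up to 4 passing genes of each list by smallest p, the most changed passing neighbour of each member and the 3 genes most like TFPI2. A few genes read alongside are not reported here. Genes were matched by symbol or unambiguous synonym. Within groups, libraries differed beyond sampling noise, so none was merged. The mean chi-square for each gene was 1.76 to 3.52 within groups and 47.6 to 55.1 between them. It covered all genes with enough reads in a pair of libraries, scaled by library totals. Alternatives covered other scalings (RLE, upper quartile, totals), other tests (DESeq2 1.42.0, voom in limma 3.58.1, glmTreat), other filters, a block on the replicate number and leaving out 1 library at a time; transcript length was added after seeing the data.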

Additional observations from a re-analysis of the deposited data

How the results depend on the processing

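The 8 members kept their direction and passed under each of the 14 alternatives that tested against no change; against a fold of 1.2, 6 passed and PLAU and PLAT did not. Their log2 fold changes ranged from 2.82 to 2.88 for TFPI2, 6.27 to 6.7 for THBD, 0.984 to 1.04 for F3, 0.505 to 0.61 for SERPINE2, 0.422 to 0.495 for PLAUR, 0.307 to 0.366 for TFPI, -0.161 to -0.11 for PLAU and -0.459 to -0.319 for PLAT. With glmTreat against a fold of 1.2, 25 of the 54 neighbouring genes and 5637 genes in all passed, fewer because a larger change is demanded. The number of other pathway genes passing ran from 39 with glmTreat to 59. Of 725 alternative values for 52 single genes, 723 kept direction and call, and the 2 that did not were those of KIAA1486. Scaling moved the median of all genes to at most 0.0367.

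Same-numbered libraries of the groups correlated in their deviations at 0.0438, 0.0166 and 0.0372, too weakly to treat them as pairs, although each library correlated best with its own number. With the replicate number as a block 11979 genes passed in place of 11467, with all 8 members among them. Depth limits THBD in wobble (5 reads over the group) and FOXA2 (1 read). Lengths per gene rest on another annotation than that of the counts, and 14 of 16 levels per kb moved by more than the spread between libraries when the longest transcript was used.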
